A study of Homo sapiens with 8 samples.

Results

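The SOX genes encode transcription factors that bind DNA through a high-mobility-group box and direct cell fate in many tissues. Members of 1 subgroup have close sequence and overlapping roles. In differentiated cells that do not use them, SOX genes are well-known targets of Polycomb repressive complex 2, whose enzyme EZH2 writes H3K27me3, a repressive mark on histone H3. The complex is known to settle on stretches rich in CpG, the base pair step C followed by G, and the mark can spread from there into broad domains.

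The 8 genes described are SOX1 and SOX2 of subgroup B1, SOX4 and SOX11 of subgroup C, SOX9 and SOX10 of subgroup E, and SOX7 and SOX17 of subgroup F. They were chosen by name, and each was taken as an hg19 span, given to the nearest 1 kb, with 10 kb added on each side. The windows measured 22 to 33 kb. For comparison, 111673 windows of 25 kb were laid over the autosomes. Other SOX genes were not analysed here.

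The measurements came from H3K27me3 ChIP-seq of untreated, immortalized B-cell lymphoma lines at passages 10 to 15. LY19Y646F carried a constitutive, CMV-driven EZH2-Y646F, whose catalytic domain is altered, and LY19WT was labelled as wild type for EZH2. Each line had 3 ChIP libraries and 1 input library, but its islands were called on the merged ChIP reads, so 1 list stands for each line. No value below has a replicate error, and the lines were compared without a statistical test. The lists held 47432 islands with 17410034 ChIP reads in LY19Y646F and 58144 islands with 37556030 ChIP reads in LY19WT. They carry no expression values, so neither B-cell identity nor the activity of the SOX genes could be checked.

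The promoter letters of 3 of the 8 genes, SOX1, SOX2 and SOX4, were matched in RefSeq (GRCh38.p14). They are shown because CpG content differs between these genes and because SOX2 alone of them lay in a broad domain, in LY19WT. Each sequence is the 250 bases before the gene start on the plus strand, at chr13:112066899-112067148 for SOX1, chr3:181711675-181711924 for SOX2 and chr6:21593501-21593750 for SOX4. Every CG is in capitals. Positions on this build were not carried over to hg19.
SOX1: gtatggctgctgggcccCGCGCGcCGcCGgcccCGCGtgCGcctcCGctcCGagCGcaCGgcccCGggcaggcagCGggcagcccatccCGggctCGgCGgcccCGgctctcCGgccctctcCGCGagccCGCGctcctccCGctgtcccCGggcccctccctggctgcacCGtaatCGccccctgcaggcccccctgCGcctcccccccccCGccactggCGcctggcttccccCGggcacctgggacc
SOX2: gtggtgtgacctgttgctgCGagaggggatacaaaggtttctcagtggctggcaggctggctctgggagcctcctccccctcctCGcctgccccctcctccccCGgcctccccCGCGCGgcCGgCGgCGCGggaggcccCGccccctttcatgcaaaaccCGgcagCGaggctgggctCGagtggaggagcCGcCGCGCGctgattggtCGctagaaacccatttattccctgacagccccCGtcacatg
SOX4: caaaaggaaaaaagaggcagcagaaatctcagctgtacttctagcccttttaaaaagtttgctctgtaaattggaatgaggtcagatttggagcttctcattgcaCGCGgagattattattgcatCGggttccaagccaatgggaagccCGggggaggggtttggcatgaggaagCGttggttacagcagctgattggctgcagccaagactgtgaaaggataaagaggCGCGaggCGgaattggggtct

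The SOX1 promoter held 31 CG, a number reached by 10.9% of 35116 RefSeq promoters of the same length. The SOX2 promoter held 20, reached by 32.4% of them, and the SOX4 promoter held 8, reached by 56.3%. The motif CG reads the same on both strands, and 93.9% of all promoters held at least 1. None of these 3 gene starts, taken in hg19 to the nearest 1 kb, lay inside an island in either line. Of the 3 genes, SOX2 had the islands closest to its start. Any relation between CpG content and the islands was not tested.

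Most of the SOX genes lay outside broad H3K27me3 domains in both lines, and SOX2 in LY19WT was the exception. None of the 8 windows was covered to at least 50% in LY19Y646F, where 12.4% of all 25 kb windows were. In LY19WT 1 of 8 was, SOX2, against 19.5% of all windows. None was covered to that extent in both lines, against 6.02% of all windows. These counts are close to what the background share gives for 8 windows.

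An island of any size touched 4 windows in LY19Y646F, those of SOX2, SOX11, SOX9 and SOX7, where the background was 29.6%. It touched 4 in LY19WT, those of SOX1, SOX2, SOX9 and SOX17, where the background was 37.0%. Both lines had islands at SOX2 and SOX9, against 18.9% of all windows. Neither line had one at SOX4 or SOX10, and 52.3% of all windows were free of islands in both lines.

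Covered share was lower in LY19Y646F at SOX1, SOX2, SOX9 and SOX17, so at 4 of 8 genes, against 29.0% of all windows. It was higher in LY19Y646F at SOX11 and SOX7, so at 2 of 8, against 18.4%. Windows with equal shares count in both backgrounds. Of all windows, 52.3% had no island in either line, against 2 of the 8 genes, which limits this comparison. No gene start, taken to the nearest 1 kb, lay inside an island in either line. Of all 200 bp windows, 13.7% were inside one in LY19Y646F and 19.8% in LY19WT. For SOX2 in LY19WT this precision does not settle the question. A region without an island can still carry the mark below the calling limit. The smallest islands of the lists held 34 ChIP reads in LY19Y646F and 35 in LY19WT.

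**Figure D1:**
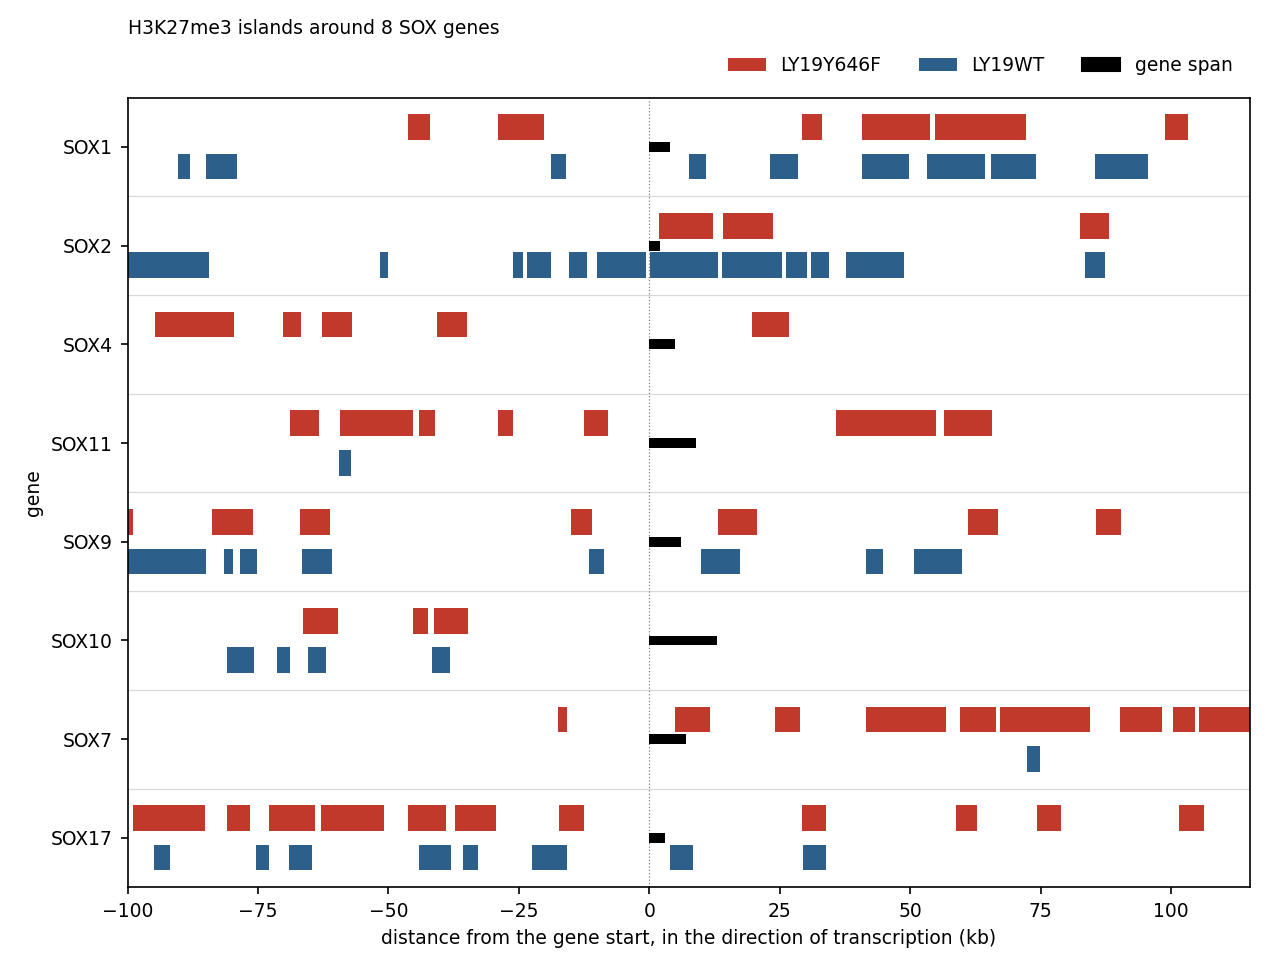
Each row is 1 gene, and the horizontal axis is the distance from the gene start in kb, in the direction of transcription, with the LY19Y646F islands in the upper track, the LY19WT islands in the lower track and the gene span in black. The start of SOX2, drawn to the nearest 1 kb, falls between LY19WT islands 0.8 kb apart. No island touches the spans of SOX1, SOX4, SOX11, SOX9, SOX10 or SOX17, and SOX4 has no LY19WT island in view.

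SOX2, which maintains pluripotent cells and neural progenitors, had the largest covered share of the 8 windows in both lines, and its share and fold were lower in LY19Y646F. In LY19WT it also had the highest folds of the 8 genes, whereas in LY19Y646F its fold was close to those of SOX9, SOX7 and SOX11. Islands covered 46.4% of its window on chromosome 3 in LY19Y646F and 96.4% in LY19WT. Of the 2 kb gene span itself, 10% was covered in LY19Y646F and 90% in LY19WT. These shares are rough, since the span ends are known only to the nearest 1 kb. SOX2 lies within the long non-coding gene SOX2-OT.

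In LY19Y646F 1 island touched the window, chr3:181431801-181442200, which took in the end of the gene and the sequence behind it. It held 384 ChIP reads and 70 input reads, an authors' fold of 2.09. In LY19WT there were 2 islands in the window, chr3:181420001-181429400 before the gene and chr3:181430201-181443200 over it. They held 704 and 1418 ChIP reads and 61 and 92 input reads, with authors' folds of 3.76 and 5.02. This deposited fold is the authors' own value for an island, with ChIP and input reads brought to a common library size.

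The LY19WT island over the gene enclosed the whole LY19Y646F island. The LY19Y646F island began 1.6 kb later and ended 1.0 kb earlier. ChIP reads per kb, not scaled for depth, were 36.9 in the LY19Y646F island and 109.1 in the LY19WT island. Within its own list the LY19WT island stood at the 99.4th percentile by fold and at the 99.5th by ChIP reads per kb. The LY19Y646F island stood at the 66.8th percentile of its list by fold, and its reads per kb were below the list's lower quartile of 38.8.

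The gap between the LY19WT islands, chr3:181429401-181430200, measured 0.8 kb, the shortest gap found in either list. The hg19 start of SOX2, known here to the nearest 1 kb as 181430000, fell in this gap as given. The gap is shorter than that precision, so the exact start could lie inside the LY19WT island over the gene. As given, the gene start was flanked on both sides by islands in LY19WT. It came to lie inside a domain when islands were joined across gaps of up to 5 kb. In LY19Y646F it did not, and the nearest island before the gene lay 964 kb away.

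Joined across such gaps, the domain around SOX2 measured 21.8 kb with 2 islands in LY19Y646F and 75 kb with 9 islands in LY19WT. The joined domain held 757 ChIP and 136 input reads in LY19Y646F, against 5053 and 442 in LY19WT. ChIP over scaled input was 2.12 in LY19Y646F and 3.72 in LY19WT over the domain. In LY19WT the reads per kb were highest over the gene, at 109.1, with 90.4 in the next island downstream and 74.9 in the next one upstream. They did not decline evenly beyond, with 83.2 in the island 12 kb upstream, and with 49.5, 56.5 and 77.4 in those 24.2, 29 and 35.6 kb downstream. The next downstream island of LY19Y646F had 39.7 reads per kb, slightly more than the 36.9 of the island at the gene.

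The difference at SOX2 extended beyond the window. With 100 kb on each side, coverage was 12.5% in LY19Y646F and 41.4% in LY19WT. Of all 200 kb windows, 16.7% had a difference at least as large in that direction. With 500 kb on each side, 4 islands covered 3.37% in LY19Y646F and 53 islands covered 41.1% in LY19WT. The island-free stretch that ran up to the end of SOX2 in LY19Y646F measured 965.8 kb, and 49 LY19WT islands covered 382 kb of it. By count, 0.686% of the gaps between LY19Y646F islands on the autosomes were as long. Long gaps hold a larger share of the sequence than of the count. Within 5 Mb of the start, input density was 1.02 times the autosomal median in LY19Y646F and 0.971 times in LY19WT, and the covered shares were 19.6% and 20.7%. These densities rest on islands alone, so the island-free stretch of LY19Y646F adds nothing to them. In the islands that overlapped at the gene, density was 0.799 times the median in LY19Y646F and 0.842 times in LY19WT.

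SOX1, which acts with SOX2 in neural progenitors, had far less of the mark at the gene than SOX2. No LY19Y646F island touched its window on chromosome 13. In LY19WT a single island of 3.2 kb, chr13:112729601-112732800, lay 3.6 kb downstream and covered 13.3% of the window. The gene span held no island in either line.

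That LY19WT island was one of the least enriched of its list, at the 0.820th percentile by fold. It held 194 ChIP reads and 48 input reads, with an authors' fold of 1.32, and an exact binomial 95% interval of the fold of 0.955 to 1.84. Its input density was 1.78 times the autosomal median. At FDR limits of 1e-05 and 1e-10 this island was lost, and SOX1 then had no island in its window in either line. Within 5 Mb of SOX1, input density was 0.925 times the median in LY19Y646F and 1.44 times in LY19WT. The part of this input difference in the SOX1 values was not tested.

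Broader domains lay downstream of SOX1 in both lines. From 36.8 kb behind the gene, LY19Y646F had islands chr13:112762801-112775800 and chr13:112776801-112794200, with folds of 3.08 and 2.26. LY19WT had islands of 9 kb, 11.2 kb and 8.6 kb there, with folds of 1.93, 1.83 and 2.01, and the first began at the same base as that of LY19Y646F. ChIP reads per kb were 42.2 and 39.8 in LY19Y646F, against 61.9, 67.3 and 72.0 in LY19WT. These reads are not scaled for depth, and all islands had a median of 41.8 reads per kb in LY19Y646F and 57.3 in LY19WT. The folds, scaled by input, ran the other way. Input density in these islands was 0.621 and 0.798 times the autosomal median in LY19Y646F, against 1.24, 1.42 and 1.38 times in LY19WT. The part of the input in these folds was not tested. With 100 kb on each side of SOX1, coverage was 25.3% in LY19Y646F and 28.7% in LY19WT.

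SOX4, a factor needed for early B-cell development that is active in many tumours, had no island in its window on chromosome 6 in either line. The nearest LY19Y646F islands lay 35 kb upstream and 14.6 kb downstream, and the downstream one, chr6:21613601-21620800, held 280 ChIP and 62 input reads at a fold of 1.72. The nearest LY19WT islands lay 1515.8 kb upstream and 2590 kb downstream.

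The LY19WT stretch without islands around SOX4 measured 4110.8 kb, and 51 of the 57832 gaps between autosomal LY19WT islands were as long. Here too, long gaps hold a larger share of the sequence than of the count. The gap around SOX4 could not be checked against reads, and the list analysed here may lack islands. In the same stretch LY19Y646F had 62 islands over 393.2 kb. With 100 kb on each side of the gene, 5 islands covered 18.1% in LY19Y646F and none lay in LY19WT. Of all 200 kb windows, 11.1% had a difference at least as large in that direction. Input density within 5 Mb was 1.03 times the median in LY19Y646F and 0.965 times in LY19WT, where it rests on islands outside the gap.

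SOX11, which acts in neural development and is known for its aberrant activity in mantle cell lymphoma, resembled SOX4 in LY19WT. No island touched its span on chromosome 2. In LY19Y646F, chr2:5820401-5825000 reached into the window 8 kb upstream of the gene and covered 6.90% of it, with 186 ChIP and 35 input reads and a fold of 2.03. In LY19WT the window held no island.

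The flanks of SOX11 parted the lines further. With 50 kb on each side, 6 islands covered 34.1% in LY19Y646F and none lay in LY19WT. With 100 kb, coverage was 27.9% in LY19Y646F and 1.05% in LY19WT, a difference reached by 6.80% of all 200 kb windows. The widest of these LY19Y646F islands, chr2:5868801-5888000, lay 26.8 kb downstream with 762 ChIP and 116 input reads at a fold of 2.51.

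An upstream island shared by both lines near SOX11 had high input. In LY19Y646F, chr2:5773801-5787800 held 818 ChIP reads and 244 input reads, a fold of 1.28 at 2.07 times the median input density. The LY19WT island that met it, chr2:5773601-5775800, held 173 and 30, a fold of 1.88 at 1.62 times the median. It was the single LY19WT island within 100 kb. The LY19WT stretch without islands at the gene ran over 706.2 kb and held 18 LY19Y646F islands.

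**Figure D2:**
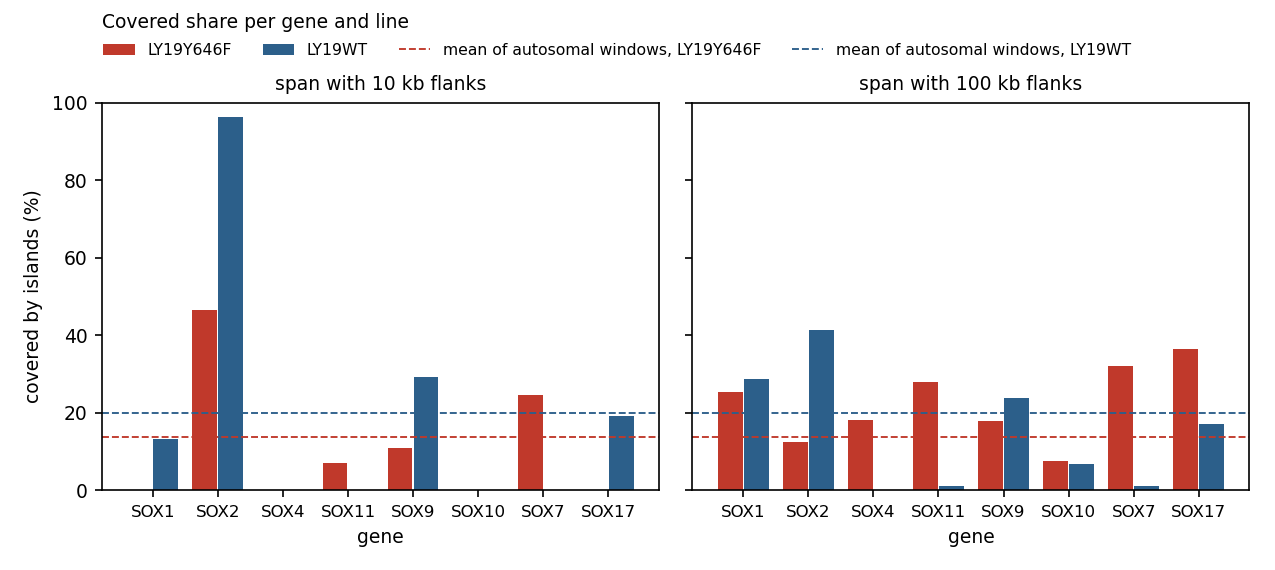
Bars give the percentage of each gene window covered by islands in LY19Y646F and LY19WT, with flanks of 10 kb in the left panel and 100 kb in the right panel, and dashed lines give the mean over autosomal windows of 25 kb and 200 kb. SOX2 stands out in LY19WT at 96.4% in the left panel, and SOX4, SOX11 and SOX7 are nearly empty in LY19WT in the right panel.

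SOX9, which directs cartilage and testis development and marks several stem cell pools, had modest islands on both sides of the gene and none over it. Islands covered 10.8% of its window on chromosome 17 in LY19Y646F and 29.2% in LY19WT. The LY19Y646F island, chr17:70130201-70137600, began 7.2 kb downstream and held 262 ChIP and 47 input reads. LY19WT had chr17:70105401-70108400 upstream with 148 and 18 reads, and chr17:70126801-70134400 downstream with 454 and 68.

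The downstream islands of the lines overlapped by 4.2 kb, 56.8% of the LY19Y646F and 55.3% of the LY19WT island. The LY19Y646F island lay farther from the gene, with its start 3.4 kb and its end 3.2 kb beyond those of LY19WT. Their folds were 2.13 in LY19Y646F and 2.17 in LY19WT. The upstream neighbour of LY19Y646F, chr17:70102001-70106000, ended 11.0 kb before the gene and so fell just outside the window, with a fold of 2.14. With flanks of 20 kb instead of 10 kb, coverage was 24.8% in LY19Y646F and 23.04% in LY19WT, so the order of the lines at SOX9 depended on where the window ended.

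The lines shared part of the wider SOX9 region. With 100 kb on each side, 7 islands covered 17.8% in LY19Y646F and 8 covered 23.7% in LY19WT. The shared 15.4 kb made up 42.1% of the LY19Y646F and 31.6% of the LY19WT length. The broadest, chr17:70011001-70032000 in LY19WT, held 1543 ChIP and 163 input reads at a fold of 3.08, and the LY19Y646F island inside it measured 5 kb at a fold of 1.85. All 5 pairs of islands around SOX9 that overlapped by at least 1 kb had the lower fold in LY19Y646F, against 75.4% of all such autosomal pairs. Some of these pairs shared an island, and the pair nearest the gene differed by a log2 ratio of only -0.03.

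SOX10, the factor of neural crest, glia and pigment cells, had no island in its window on chromosome 22 in either line. Both lines had their nearest island upstream, 34.8 kb away in LY19Y646F and 38.2 kb away in LY19WT. These were chr22:38415801-38422200 with 259 ChIP and 41 input reads in LY19Y646F, and chr22:38419201-38422600 with 155 and 32 in LY19WT. Downstream the nearest lay 365.8 kb away in LY19Y646F and 164.2 kb away in LY19WT. With 100 kb on each side, coverage was 7.51% in LY19Y646F and 6.85% in LY19WT. RefSeq lists POLR2F, a subunit of the RNA polymerases, as overlapping SOX10.

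SOX7, a factor of endothelial and early endoderm cells, was the single gene besides SOX2 with an island over its span, in LY19Y646F alone. The island chr8:10576401-10583000 covered 28.6% of the span at the end of the gene and 24.4% of the window. It held 261 ChIP and 47 input reads, with a fold of 2.12 and 39.5 ChIP reads per kb. No LY19WT island touched the window.

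The LY19Y646F islands continued downstream of SOX7. With 100 kb on each side, 9 islands covered 32.0% in LY19Y646F and 1 island covered 1.16% in LY19WT, a difference reached by 5.44% of all 200 kb windows. The widest, chr8:10503601-10520800, held 818 ChIP and 129 input reads at a fold of 2.42. The single LY19WT island, chr8:10513201-10515600, lay inside it with 122 and 23 reads at a fold of 1.73. Input density within 5 Mb was 1.04 times the median in LY19Y646F and 1.00 times in LY19WT, and coverage over these 10 Mb was 29.6% and 29.0%.

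SOX17, which specifies definitive endoderm and arterial endothelium, had an island just behind the gene in LY19WT alone. That island, chr8:55374001-55378400, began 1.0 kb after the span, held 236 ChIP and 36 input reads at a fold of 2.13, and covered 19.1% of the window. The nearest LY19Y646F islands lay 12.6 kb upstream and 26.2 kb downstream.

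Beyond the window the order of the lines at SOX17 changed. With 50 kb on each side, coverage was 23.7% in LY19Y646F and 23.9% in LY19WT. With 100 kb it was 36.4% in LY19Y646F and 17.1% in LY19WT, and 10.4% of all 200 kb windows had a difference at least as large in that direction. The LY19Y646F islands stood mostly upstream, led by chr8:55271001-55284800 with 592 ChIP and 126 input reads at a fold of 1.79. The downstream islands at 26.2 kb in LY19Y646F and 26.4 kb in LY19WT ended at the same base, with folds of 2.21 and 1.68.

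**Figure D3:**
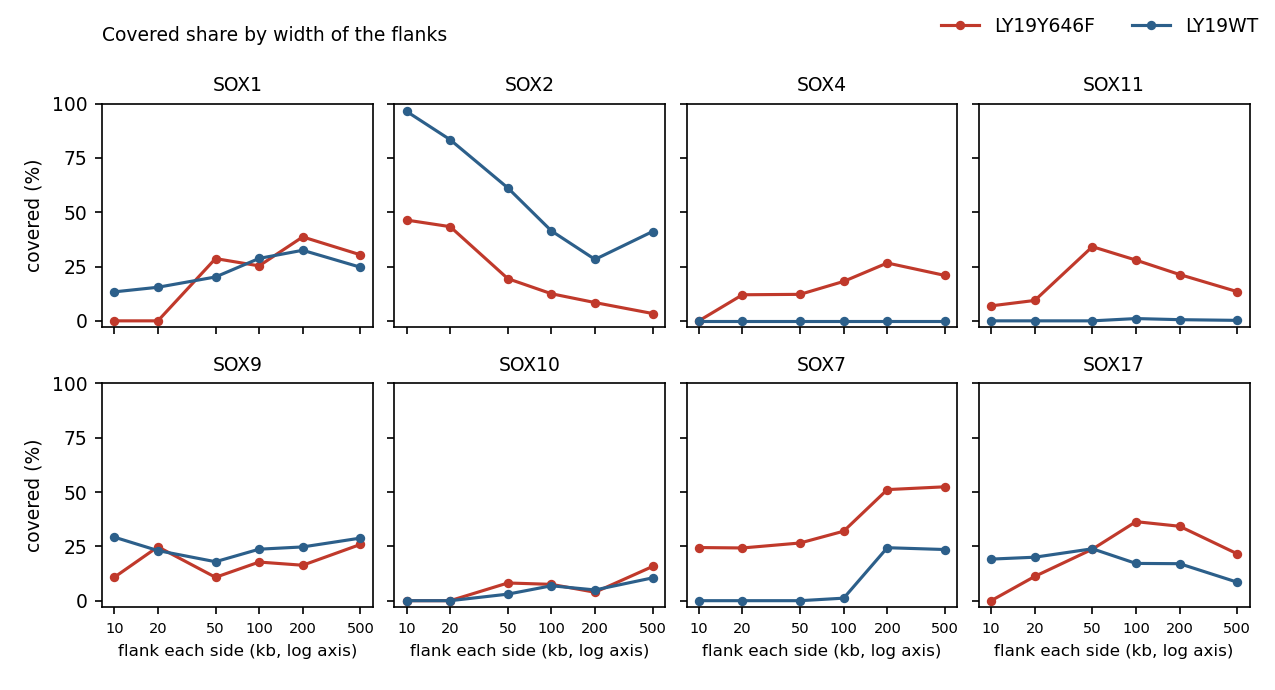
Each panel is 1 gene and gives the percentage covered by islands in LY19Y646F and LY19WT for flanks of 10 to 500 kb on each side, on a log axis. Coverage at SOX2 is lower in LY19Y646F at every width, SOX4, SOX11 and SOX7 are higher in LY19Y646F at 20 kb and more, and the lines cross at SOX1, SOX9, SOX10 and SOX17.

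In none of these subgroups did partners share a pattern in the windows with 10 kb flanks. SOX2 had the LY19WT domain and SOX1 had a single weak island. SOX9 had islands in both lines and SOX10 in neither. SOX7 had an island in LY19Y646F alone and SOX17 in LY19WT alone. SOX11 had an island in LY19Y646F alone and SOX4 in neither line. At the wider flanks SOX4 and SOX11 were alike in that LY19WT was nearly empty for 500 kb on each side. Coverage there was 20.9% and 13.4% in LY19Y646F against 0% and 0.218% in LY19WT. With 100 kb on each side SOX7 was nearly empty in LY19WT too, at 1.16%.

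Over all 8 genes with 100 kb flanks, 1649 kb in all, coverage was 22.1% in LY19Y646F and 14.9% in LY19WT. The mean over all 200 kb windows was 13.7% in LY19Y646F and 19.8% in LY19WT. With 100 kb flanks the order of the lines around these genes was thus the opposite one. At this width LY19WT was nearly empty at SOX4, SOX11 and SOX7, with 0%, 1.05% and 1.16%. The SOX4 gap could not be checked against reads. In the windows with 10 kb flanks, 4 genes were lower in LY19Y646F and 2 were higher. By gene with 100 kb flanks, 5 of 8 were higher in LY19Y646F, against 31.7% of all 200 kb windows, and 3 of 8 were lower, against 40.2%. The remaining 200 kb windows had equal shares in the lines, whereas no SOX gene did, which limits this comparison. With islands joined across gaps of up to 5 kb, 4 genes were higher and 4 were lower, so this split depends on how islands are joined. Islands covered 365 kb in LY19Y646F and 245 kb in LY19WT, and 97.8 kb of this was shared, 26.8% of the LY19Y646F and 39.9% of the LY19WT length.

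Islands of both lines touched the windows of SOX2 and SOX9, though their extents differed, with 10.4 kb in LY19Y646F and 22.4 kb in LY19WT at SOX2, and 7.4 kb and 10.6 kb at SOX9. The sums below therefore do not cover the same sequence in each line. Summed over the islands of the SOX2 window, ChIP over scaled input was 2.09 in LY19Y646F (exact binomial 95% interval 1.62 to 2.74) and 4.51 in LY19WT (3.83 to 5.35), a log2 ratio of -1.11. For the single islands that overlapped at the gene, the folds of 2.09 and 5.02 gave a log2 ratio of -1.26. At SOX9 it was 2.13 in LY19Y646F (1.56 to 2.97) and 2.28 in LY19WT (1.81 to 2.89), a log2 ratio of -0.10. The LY19WT sum at SOX9 includes the upstream island, whose LY19Y646F counterpart lay outside the window. The intervals cover counting error of the reads only and are no test between the lines.

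The sums of both genes were lower in LY19Y646F on this scale, and the same held for 79.9% of the 25 kb windows with islands in both lines. The direction at SOX9 and the size of the difference at SOX2 depended on the scaling. With ChIP reads per kb per 1000000 reads in all islands of the line, SOX2 had 2.12 in LY19Y646F and 2.52 in LY19WT, and SOX9 had 2.03 and 1.51. That total depends on how many islands a list holds.

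Across the 100 kb flanks, 21 pairs of islands overlapped between the lines by at least 1 kb, some sharing an island. The fold was lower in LY19Y646F in 9 of these pairs, against 75.4% of all 30699 such autosomal pairs. The pairs at SOX9 were lower in 5 of 5, those at SOX2 in 2 of 3, those at SOX1 in 0 of 3, those at SOX10 in 0 of 2 and those at SOX17 in 1 of 6. The single pair at SOX11 was lower and that at SOX7 was higher. The largest difference among these pairs was that of the island over SOX2, with a log2 ratio of -1.26.

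**Figure D4:**
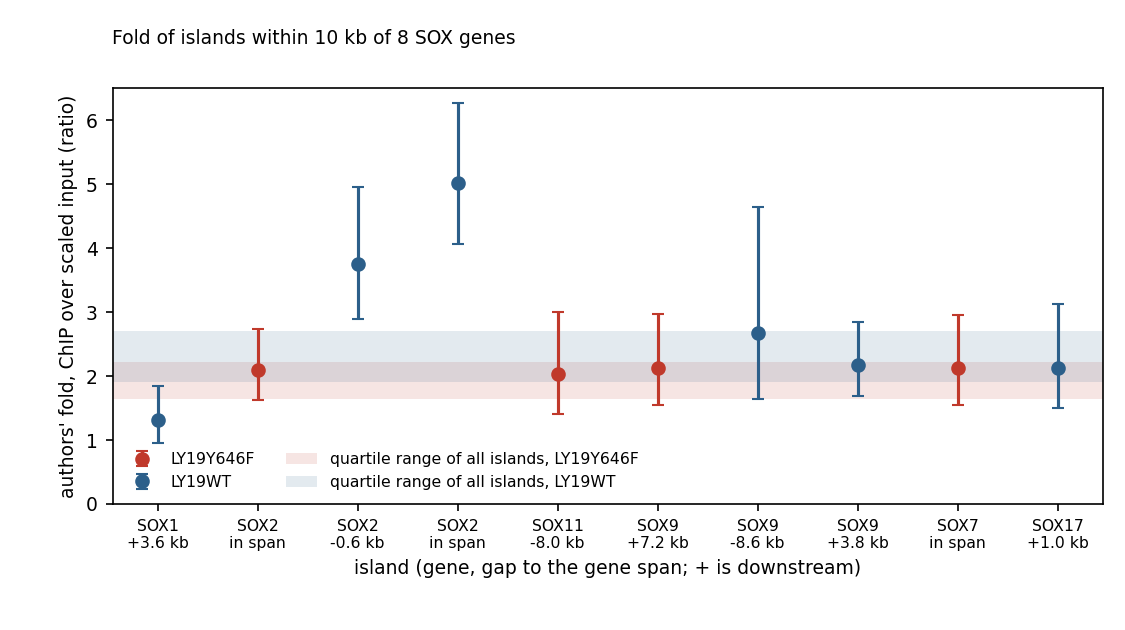
Points give the authors' fold of each of the 10 islands within 10 kb of a SOX gene, with exact binomial 95% intervals for counting error, in LY19Y646F and LY19WT, and the bands give the quartile range of all islands of each list. The 4 LY19Y646F islands sit between 2.03 and 2.13, the 2 LY19WT islands at SOX2 sit above the bands at 3.76 and 5.02, and the LY19WT island at SOX1 sits below them at 1.32.

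The islands within 10 kb of these genes can be set against their lists. The 4 LY19Y646F islands of the windows measured 4.6 to 10.4 kb with 35.4 to 40.4 ChIP reads per kb, where the list had quartiles of 38.8 and 45.1. Their folds of 2.03 to 2.13 lay within the quartiles of 1.65 and 2.22. The 6 LY19WT islands measured 3 to 13 kb with 49.3 to 109.1 reads per kb, where the list had quartiles of 51.5 and 65.5, and LY19WT folds had quartiles of 1.91 and 2.71.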

How the data were processed

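H3K27me3 ChIP-seq of LY19Y646F and LY19WT was analysed from 1 deposited list of islands per line. The tools named in the submitters' processing notes are SICER, bedtools, SAMtools 1.3.1 and Bowtie2 2.2.9, and the build is hg19. For SICER the version and settings are not given in the sources used here. File titles in the labels speak of merged replicates, calling against input and an FDR of 0.001. The authors' values for an island, per the file headers, are a raw count of ChIP reads and of input reads, a fold (a linear ratio), a p-value and an FDR. The ratio of libraries recovered from the deposited fold was 2.62 in LY19Y646F and 3.07 in LY19WT. Total library sizes were not known. A few islands may be absent from the lists as analysed here.

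Covered share was the length of islands in a window over its length, with 1-based coordinates and ends read as inclusive on the 200 bp grid. All 16 values of the gene windows equalled those of bedtools 2.31.1. Strands of the genes were taken from general knowledge and, for 3 genes, checked against RefSeq. Gene starts are hg19 positions to the nearest 1 kb. Input density is input reads per kb of an island over the median of autosomal islands, 8.42 in LY19Y646F and 8.41 in LY19WT. Intervals are exact at 95% (Clopper-Pearson for folds) and treat reads as independent. Neighbouring genes are RefSeq names. Scripts ran in Python 3.11.15 with matplotlib 3.10.9, scipy 1.17.1, pandas 2.3.3 and numpy 2.4.6. Coverage steps were checked on random subsets of the LY19WT islands. All 8 genes were described by rule. The genes, lists and rules were chosen with earlier results of these data known, and counts of any overlap and 100 kb flanks were added after seeing these data. Alternatives were other FDR limits, joined islands, flanks, coverage limits, scalings, window lengths and a LY19WT list of equal covered length.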

Additional observations from a re-analysis of the deposited data

How the results depend on the processing

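The values here count genes out of 8. The number of gene starts inside a LY19WT island turned from 0 to 1 when islands were joined across gaps of up to 5 kb. With the LY19WT list shortened, by p-value, until it covered no more than the LY19Y646F list, 1 gene had a lower share in LY19Y646F in place of 4 (1 in place of 3 with 100 kb flanks), LY19WT islands touched 1 gene in place of 4, both lines touched 1 in place of 2, and the SOX9 difference turned to 10.8 percentage points. With no flanks, LY19Y646F islands touched 2 genes, LY19WT islands 1 and both 1, 1 gene was lower and 1 higher in LY19Y646F, and 1 gene had lower ChIP over input. With 20 kb flanks 4 genes had a higher share in LY19Y646F and SOX9 turned to 1.74 points. With 50 kb flanks these were 5 genes, LY19Y646F islands touched 8 genes and both lines 5, and SOX1 turned to 8.46 points. At a limit of 25% covered, 1 gene passed in LY19Y646F, 2 in LY19WT and 1 in both. Scaled by total ChIP reads in islands, 1 gene in place of 2 was lower in LY19Y646F. The SOX2 log2 ratio then moved from -1.11 to -0.25, and that of SOX9 turned to 0.43. Another 68 values stayed within 1.5 times, among them the counts of genes at FDR limits of 1e-05 and 1e-10, at 75% covered and for windows of 10 and 50 kb. At both FDR limits LY19WT islands touched 3 genes in place of 4, since SOX1 lost its island and its difference became 0. With joined islands, 4 genes were higher and 4 lower in LY19Y646F in the 100 kb flanks. No paired analysis was possible because the replicates of a line had been merged before the lists were made, and for the same reason no replicate could be left out. The causes were not tested. Depth limits which weak islands were called, and it could not be made equal without reads.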

Other observations

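Over the 5 Mb on each side of the gene starts, islands around SOX4 covered 10.1% in LY19Y646F and 7.34% in LY19WT, and around SOX11 they covered 26.1% in LY19Y646F and 19.3% in LY19WT. Around SOX1 the shares were 16.8% in LY19Y646F and 22.6% in LY19WT, and around SOX17 they were 6.80% in LY19Y646F and 11.3% in LY19WT. Around SOX9 they were 22.1% in LY19Y646F and 20.3% in LY19WT, and around SOX10 they were 29.1% in LY19Y646F and 27.4% in LY19WT. Outside SOX1, input density over these stretches ran from 0.924 to 1.045 times the autosomal median in LY19Y646F and from 0.944 to 1.03 times in LY19WT.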
